A study of Mus musculus with 32 samples.

Results

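Livers of male *Cyp2c70* KO mice fed the ileal bile acid transporter inhibitor (IBATi) SC-435 were compared with livers of male WT mice fed chow, gene by gene, in bulk RNA sequencing. The comparison uses 7 of the 32 libraries of the series, 4 from treated KO mice and 3 from WT mice on chow, each made from the liver of 1 mouse. The fourth male WT chow library, replicate 1, was left out for its aberrant composition, and values below follow the replicate numbers, 2 to 4 in WT chow and 1 to 4 in the other groups. The other libraries of the series are the remaining male groups (KO mice on chow and WT mice on SC-435, 4 each) and the same 4 groups of females. All mice were on a C57BL/6 background and 12 weeks old, ate ad libitum, were not fasted, and had their livers perfused with saline before freezing. KO mice carry a CRISPR-Cas9 deletion that takes in exon 2 of *Cyp2c70*, and the whole line descends from a single founder. The treated KO mice received chow with 0.006% SC-435 by weight, about 11 mg/kg/day, and the WT mice received chow without it. The labels date SC-435 from 3 weeks after weaning. The results and a figure legend of the study instead place weaning at 4 weeks, with the diet switched then and kept up to 12 weeks. The start differs between these sources, so the length of treatment is not settled here.

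*Cyp2c70* encodes the cytochrome P450 that makes muricholic acids from chenodeoxycholic acid in rodents, and mice without it carry a more hydrophobic bile acid pool. The ileal transporter returns bile acids from the intestine to the liver, and its inhibition sends them into the feces. In the liver, bile acids bind the nuclear receptor FXR, which lowers the enzymes of bile acid synthesis, and a liver that makes more bile acids from cholesterol draws on its sterol synthesis pathway, controlled by SREBP2.

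The 7 libraries held 37395618 to 42241332 counted reads on genes. The WT chow replicate that was left out had a TMM scaling factor of 0.639 and gave 8.10% of its counts to albumin, against 5.38 to 6.11% in the 3 used. Keeping it lowered the number of genes called from 289 higher and 126 lower to 26 higher and 6 lower. One of the 4 male WT SC-435 libraries, replicate 4, also stood apart, with *Saa2* at 9181 CPM against 8.40 to 15.2 CPM in the other 3. The 3 WT chow libraries used differed from all other male libraries in clock transcripts, as described with those genes. Hepatocyte markers did not separate the groups, with 0 of 16 tested markers called in either direction and a summed level of 101174 to 110088 CPM in WT chow and 88345 to 118606 CPM in treated KO livers. Levels are in CPM, a gene's count relative to the TMM-scaled size of its library. Fold changes are on the log2 scale and follow with their standard error (SE). To be called, a gene needed both an adjusted p below 0.05 in edgeR's quasi-likelihood test and a change of more than 1 on that scale.

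The targeted gene was lower in every KO liver than in every WT liver on chow. *Cyp2c70* (ENSMUSG00000060613) measured 522, 577 and 635 CPM in the WT chow livers and 109.8, 151, 115 and 122 CPM in the treated KO livers, so the groups did not overlap. Its log2 fold change was -2.22 ± 0.12 (95% interval -2.50 to -1.95, adjusted p = 2.43e-05). The table counts reads over all exons of the gene, the deleted and the remaining ones alike. The transcript was also lower in WT mice on SC-435, at 346, 275, 284 and 374 CPM, with a log2 fold change against WT chow of -0.86 ± 0.14 (adjusted p = 0.0197) that stayed within the fold limit.

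Most genes of the liver lay close between treated KO and untreated WT mice. Of 15797 genes tested, 83.5% differed by less than 0.5 on the log2 scale and 95.4% by less than 1, and for 12055 genes (76.3%) the whole 95% interval lay within 1. The test called 289 genes higher (1.83% of those tested) and 126 lower (0.798%) in treated KO livers. Of the called genes 231 of the higher and 86 of the lower ones were protein coding. The 3 WT and 4 KO values did not overlap for 287 of the 289 higher genes and 122 of the 126 lower genes, beside 27.0% of all genes tested. KO mice on chow, set against the same 3 WT mice, had 637 genes called in either direction (3.89% of 16390), and WT mice on SC-435 had 160 (1.03% of 15577). Those comparisons share the WT chow libraries with the present one and are given only side by side with it.

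The largest rise was in *Lrtm2*, which encodes a leucine-rich repeat membrane protein (chr6:119315133-119330766, GRCm38). It measured 0.0274, 0.175 and 0.0773 CPM in WT chow and 6.37, 3.76, 5.04 and 6.24 CPM in treated KO livers, a log2 fold change of 5.76 ± 0.40 (adjusted p = 0.000127). KO livers on chow held 7.004, 5.43, 11.5 and 10.001 CPM. WT livers on SC-435 held 0.0291, 0, 0.0798 and 0.0538 CPM. The gene was thus high in both KO groups and near 0 in both WT groups. *Fam19a2*, a gene for a secreted chemokine-like protein, had the opposite arrangement. It stood at 0.0548, 0.05005 and 0.232 CPM in WT chow and 5.38, 5.696, 5.36 and 7.72 CPM in treated KO livers (log2 fold change 5.70 ± 0.39, adjusted p = 0.000123). WT livers on SC-435 held 7.301, 7.28, 8.48 and 5.11 CPM and KO livers on chow 0.112, 0.138, 0.0394 and 0.0706 CPM. Its high values were those of the SC-435 diet in either genotype.

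*Osbpl3*, an oxysterol-binding protein, was high in all 3 other male groups. Its values were 2.38, 1.08 and 1.11 CPM in WT chow and 27.6, 27.7, 23.4 and 29.9 CPM in treated KO livers, a rise of 4.16 ± 0.25 (adjusted p = 5.9e-05). KO chow livers held 7.83, 8.65, 24.6 and 27.5 CPM and WT SC-435 livers 13.4, 13.5, 13.4 and 5.19 CPM. *Sytl5*, which encodes a synaptotagmin-like vesicle protein, went from 0.219, 0.1001 and 0.129 CPM to 2.48, 1.15, 3.47 and 3.08 CPM (log2 fold change 4.06 ± 0.48, adjusted p = 0.00164). *Pls1*, the actin-bundling protein of microvilli, rose by 2.95 ± 0.45 (adjusted p = 0.00472). *Igfbp1*, an insulin-like growth factor binding protein, rose by 3.12 ± 0.62 (adjusted p = 0.0144). *Ntrk2*, a neurotrophin receptor, rose by 3.17 ± 0.65 (adjusted p = 0.0158). *Ppp1r3g*, a glycogen-targeting subunit of protein phosphatase 1, passed narrowly and spread widely. It stood at 0.987, 0.726 and 0.361 CPM in WT and 2.14, 1.27, 4.42 and 15.4 CPM in treated KO livers (log2 fold change 3.06 ± 0.87, adjusted p = 0.0493). *Slc22a26* and *Slc22a27*, also among the 10 largest rises, are described with the female-biased genes. *Igfbp1* was not called without WT chow replicate 3 (3.30, adjusted p = 0.0608). *Ntrk2* was not called without WT chow replicate 2 or 3 (2.86 to 2.92, adjusted p 0.0554 to 0.0808). *Ppp1r3g* was not called without WT chow replicate 2, 3 or 4 or KO SC-435 replicate 3 or 4 (1.89 to 3.40, adjusted p 0.0585 to 0.155). *Ppp1r3g* stood at 1.96 (adjusted p = 0.655) with the left-out WT chow library kept, which held 3.95 CPM.

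By adjusted p, the 3 smallest among the rises were *Lgals1*, *Cd36* and *Fam126a*. *Lgals1*, the gene for galectin-1, measured 9.87, 9.08 and 9.89 CPM in WT and 41.5, 36.5, 41.4 and 39.1 CPM in treated KO livers (log2 fold change 2.03 ± 0.08, adjusted p = 7.27e-06). *Fam126a*, whose protein is part of a phosphatidylinositol kinase complex at the plasma membrane, measured 7.73, 7.56 and 9.02 CPM and 28.7, 27.7, 28.97 and 31.2 CPM (log2 fold change 1.84 ± 0.09, adjusted p = 2.16e-05). Both groups were tight for these genes, with the lowest KO value more than 3 times the highest WT value in each case. *Lgals1* stood at 1.24 (adjusted p = 0.485) with the left-out WT chow library kept, which held 37.6 CPM.

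Among the falls, *Camk2b*, a subunit of calcium/calmodulin-dependent kinase II (chr11:5969644-6066362), followed the genotype. It measured 22.7, 22.3 and 20.7 CPM in WT chow and 4.302, 4.91, 5.25 and 5.91 CPM in treated KO livers, a log2 fold change of -2.11 ± 0.11 (adjusted p = 2.19e-05). WT SC-435 livers held 24.6, 23.2, 19.02 and 21.3 CPM and KO chow livers 6.51, 7.31, 7.61 and 7.002 CPM. *Wnk4*, a kinase that controls ion transporters, was low on the diet in either genotype and fell from 5.95, 9.28 and 7.42 CPM to 1.25, 1.61, 1.24 and 1.403 CPM (log2 fold change -2.46 ± 0.19, adjusted p = 0.000221). WT SC-435 livers held 1.43, 1.32, 1.89 and 1.94 CPM and KO chow livers 5.86, 7.56, 9.38 and 4.97 CPM. *Hsd17b6*, a steroid and retinol dehydrogenase, was also low in both SC-435 groups. It measured 220.5, 274 and 159 CPM in WT chow and 41.99, 34.9, 33.4 and 38.5 CPM in treated KO (log2 fold change -2.56 ± 0.16, adjusted p = 7.83e-05). WT SC-435 livers held 29.6, 39.6, 37.95 and 11.7 CPM. *Serpina9*, a serine protease inhibitor, stood at -2.33 ± 0.47 (adjusted p = 0.0144) and *Ptgds*, a prostaglandin D synthase, at -2.12 ± 0.52 (adjusted p = 0.0308). *Hcn3*, an ion channel subunit, stood at -2.02 ± 0.23 (adjusted p = 0.00134). *Hcn3* measured 52.6, 71.7 and 30.99 CPM in WT chow and 12.95, 12.4, 11.7 and 14.1 CPM in treated KO livers. It ranged from 5.59 to 15.8 CPM in KO chow and from 4.73 to 14.6 CPM in WT SC-435 livers. *Hcn3* stood at -1.65 (adjusted p = 0.495) with the left-out WT chow library kept, which held 4.63 CPM. The lincRNA *Gm42031* was at 5.48, 5.205 and 3.66 CPM in WT chow livers and had at most 2 reads in any treated KO library. Against a floor of 3 counts in that group's library of smallest TMM-scaled size it was at least 59.2-fold lower. *Serpina9* was not called without WT chow replicate 3 (-2.20, adjusted p = 0.0659). *Ptgds* was not called without WT chow replicate 2 or 3 or KO SC-435 replicate 1 or 4 (-2.24 to -1.80, adjusted p 0.0583 to 0.115).

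**Figure D1:**
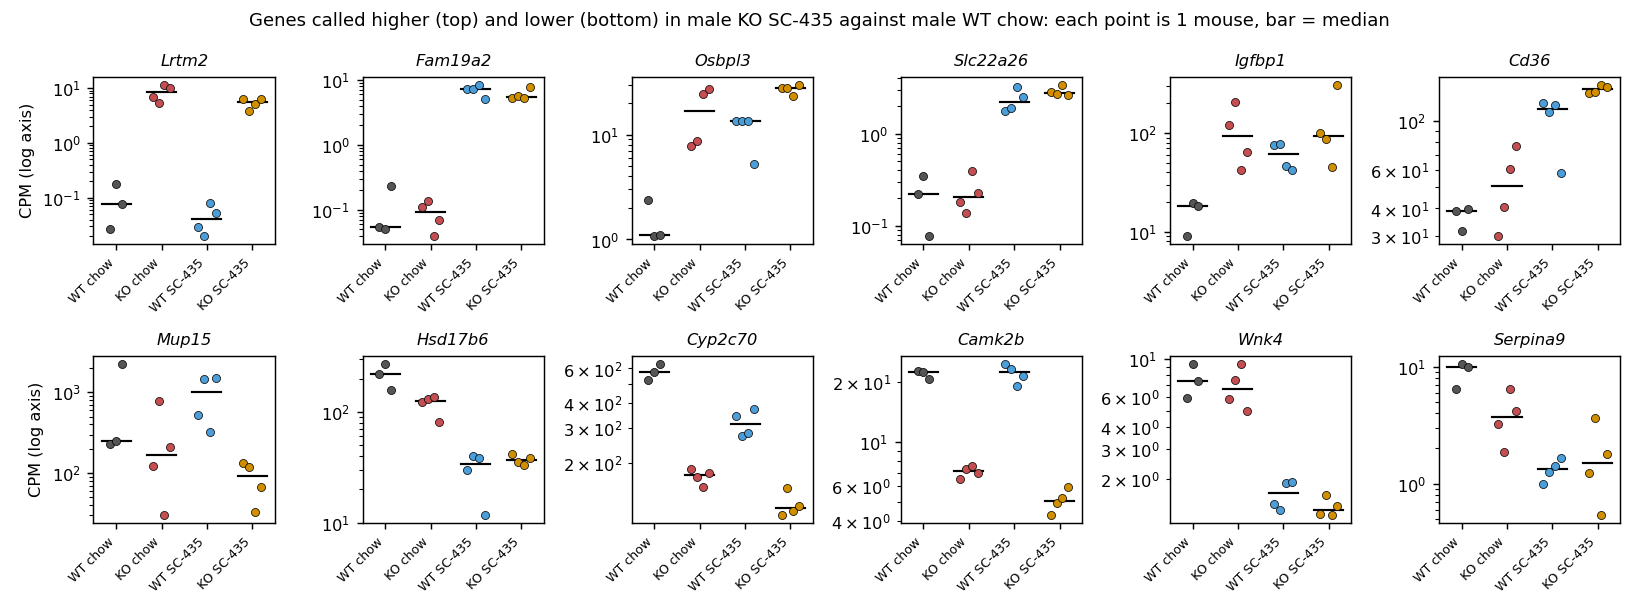
CPM (log axis, own scale in each panel) of 6 genes called higher and 6 called lower in male KO SC-435 against male WT chow livers, in each mouse of the 4 male groups. Points are mice, bars are medians, and a value of 0 is drawn at 0.02 CPM. *Lrtm2* and *Camk2b* split by genotype, *Fam19a2*, *Slc22a26* and *Wnk4* by diet, and *Osbpl3* and *Cyp2c70* stood apart from WT chow in all 3 other groups.

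The enzymes of cholesterol synthesis rose as a group. Of the 21 enzymes listed, all tested, 16 were called higher and 0 lower, beside 1.83% higher over all genes, with a median log2 fold change of 1.22 beside -0.000595 over all genes tested. *Hmgcs1*, which makes HMG-CoA from acetyl-CoA, measured 212, 122 and 194 CPM in WT chow and 863, 931, 1081 and 1271 CPM in treated KO livers (log2 fold change 2.55 ± 0.21, adjusted p = 0.000304). *Mvd*, the decarboxylase that closes the mevalonate steps, measured 18.2, 13.3 and 19.9 CPM and 58.7, 63.6, 87.8 and 80.7 CPM (log2 fold change 2.07 ± 0.18, adjusted p = 0.000353). *Msmo1*, a sterol methyl oxidase of the later steps, measured 175, 106 and 202 CPM and 426, 463, 579 and 588 CPM (log2 fold change 1.66 ± 0.21, adjusted p = 0.00232). Every treated KO liver lay above every WT liver for these enzymes and for *Pmvk*, phosphomevalonate kinase (log2 fold change 1.62 ± 0.22, adjusted p = 0.00304), and *Hsd17b7*, a late 3-ketosteroid reductase (log2 fold change 1.06 ± 0.12, adjusted p = 0.00133). Some enzymes that were not called are named here after their values were seen. *Sc5d* at 0.90 ± 0.14 (adjusted p = 0.00567), *Ebp* at 0.59 ± 0.12 (adjusted p = 0.0158) and *Tm7sf2* at 0.57 ± 0.14 (adjusted p = 0.0338) passed on adjusted p alone. *Ggps1*, which leads to prenyl groups and not to sterols, stood at -0.19 ± 0.11 (adjusted p = 0.288). *Mvd* stood at 1.21 (adjusted p = 0.581) with the left-out WT chow library kept, which held 73.03 CPM. *Pmvk* stood at 0.91 (adjusted p = 0.697) with the left-out WT chow library kept, which held 125 CPM. *Hsd17b7* was not called without WT chow replicate 3 or KO SC-435 replicate 3 (0.96 to 0.99, adjusted p 0.00156 to 0.00888).

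The rise went with the diet. In WT mice on SC-435 against the same WT chow mice, 13 of the 21 enzymes were called higher, beside 0.674% of all genes there, with a median of 1.16, and in KO mice on chow 0 were called with a median of -0.36. *Hmgcs1* measured 885, 1091, 723 and 946 CPM in WT SC-435 and 213, 176, 169 and 166 CPM in KO chow livers. Between the treated genotypes the median was 0.08 with 0 of 21 called. Among the 10 tested genes of SREBP2 control and cholesterol uptake, *Rdh11*, a retinol dehydrogenase under sterol control (log2 fold change 1.51 ± 0.25, adjusted p = 0.00679), and *Insig1*, the sterol-sensing anchor of the SREBP complex (log2 fold change 1.17 ± 0.15, adjusted p = 0.00233), were called higher and none lower, beside 1.83% and 0.798% of all genes. Of the 12 LXR and cholesterol efflux genes none was called, and the most abundant, *Apoa1*, stood at 0.14 ± 0.11 (adjusted p = 0.428), with *Lcat*, which esterifies plasma cholesterol, at 0.07 ± 0.08 (adjusted p = 0.61).

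The 250 bases before the start of 3 of these enzymes are shown because the pathway's SREBP2-binding element lies in such promoters, with 2 motifs searched on both strands: the sterol regulatory element TCACNCCAC and the CCAAT box CCAAT, with which it can share a base at its end. No match overlapped another in these windows. Capitals mark every match in these RefSeq sequences (build GRCm38.p6), written in the gene's direction.
*Hmgcs1*, chr13:119690101-119690350, plus strand: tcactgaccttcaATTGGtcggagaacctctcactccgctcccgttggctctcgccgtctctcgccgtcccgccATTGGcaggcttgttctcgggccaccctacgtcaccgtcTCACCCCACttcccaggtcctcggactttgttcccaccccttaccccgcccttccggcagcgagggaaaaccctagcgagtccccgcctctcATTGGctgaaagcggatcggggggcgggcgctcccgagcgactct
*Mvd*, chr8:122443423-122443672, minus strand: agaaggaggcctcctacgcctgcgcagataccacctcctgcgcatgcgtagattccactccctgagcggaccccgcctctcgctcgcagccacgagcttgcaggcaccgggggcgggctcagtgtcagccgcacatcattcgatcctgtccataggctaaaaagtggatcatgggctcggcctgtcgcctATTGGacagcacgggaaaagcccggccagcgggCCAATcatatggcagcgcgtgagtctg
*Msmo1*, chr8:64733579-64733828, minus strand: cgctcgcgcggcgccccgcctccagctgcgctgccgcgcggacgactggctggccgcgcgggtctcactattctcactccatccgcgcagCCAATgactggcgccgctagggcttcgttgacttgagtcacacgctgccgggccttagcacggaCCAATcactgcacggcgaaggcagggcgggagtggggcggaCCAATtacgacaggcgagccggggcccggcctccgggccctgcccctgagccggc
The *Hmgcs1* window held 1 sterol regulatory element, which ended 128 bases before the start, and 3 CCAAT boxes. RefSeq windows were matched for 16 of the 21 enzymes, 19 windows in all, and 1 of the 19 (5.26%) held the sterol element in these exact letters, beside 1.05% of all 32851 windows. A CCAAT box was in 15 of the 19 (78.9%), beside 33.8% of all windows. These matches are letters in a window and were not tested for binding.

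Bile acid synthesis changed at few of its steps. Of 17 genes tested, *Cyp7a1*, the rate-limiting 7-alpha-hydroxylase, and *Cyp8b1*, the 12-alpha-hydroxylase that leads to cholic acid, rose, and *Cyp7b1*, the oxysterol 7-alpha-hydroxylase of the acidic pathway, fell. *Cyp7a1* measured 163, 67.3 and 98.8 CPM in WT chow and 586, 324, 675 and 455 CPM in treated KO livers (log2 fold change 2.20 ± 0.33, adjusted p = 0.00425). WT SC-435 livers held 709, 569.7, 506 and 462 CPM and KO chow livers 26.5, 26.9, 24.95 and 61.01 CPM. *Cyp8b1* measured 424, 205 and 256 CPM and 999, 880.1, 1063 and 1040.01 CPM (log2 fold change 1.74 ± 0.22, adjusted p = 0.00214). Both were high on SC-435 in either genotype, and neither was called between the treated genotypes, at -0.15 ± 0.22 (adjusted p = 0.854) and -0.08 ± 0.15 (adjusted p = 0.897). *Cyp7b1* measured 270.3, 377 and 574 CPM in WT and 165, 271, 125 and 154 CPM in treated KO livers, groups that overlapped (log2 fold change -1.19 ± 0.29, adjusted p = 0.03). Of the 17 genes 2 were called higher and 1 lower, beside 1.83% and 0.798% of all genes, with a median of 0.17. *Cyp8b1* was not called with the 4 male groups in a single fit (1.74, adjusted p = 0.058). *Cyp8b1* stood at 0.97 (adjusted p = 0.697) with the left-out WT chow library kept, which held 1121 CPM. *Cyp7b1* was not called without WT chow replicate 3 or 4 or KO SC-435 replicate 1 or 4 (-1.25 to -0.86, adjusted p 0.0716 to 0.0904).

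Of 14 tested bile acid and related transport genes, *Abcc4* rose and *Slco1a1* fell, beside 1.83% of all genes called higher and 0.798% lower. *Abcc4*, the basolateral exporter MRP4, measured 3.23, 3.03 and 3.58 CPM in WT chow and 12.9, 13.4, 14.6 and 12.8 CPM in treated KO livers (log2 fold change 2.02 ± 0.11, adjusted p = 2.19e-05). *Slco1a1*, an organic anion uptake transporter, measured 626, 638 and 613 CPM and 283, 324, 257 and 301 CPM (log2 fold change -1.11 ± 0.09, adjusted p = 0.000282). *Slco1a1* stood at -0.81 (adjusted p = 0.665) with the left-out WT chow library kept, which held 152 CPM. The main bile acid uptake transporter *Slc10a1* (NTCP) stood at 762, 668 and 591 CPM and 559.9, 556, 605 and 581 CPM, with a 95% interval of -0.44 to -0.03 for its log2 fold change. The export pump *Abcb11* (BSEP) stood at 934, 871 and 687 CPM and 816, 836, 795 and 808 CPM, with an interval of -0.27 to 0.19. Neither was called, and both intervals exclude a change of 1 on the log2 scale. In the FXR list, 3 of 13 tested genes were called higher, beside 1.83% of all genes, namely *Cyp7a1*, *Cyp8b1* and the hormone gene *Fgf21*. *Cyp7a1* and *Cyp8b1* are also members of the bile acid synthesis list. *Nr0b2*, the FXR target SHP, named after its value was seen, stood at -0.91 ± 0.22 (adjusted p = 0.03), within the fold limit.

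**Figure D2:**
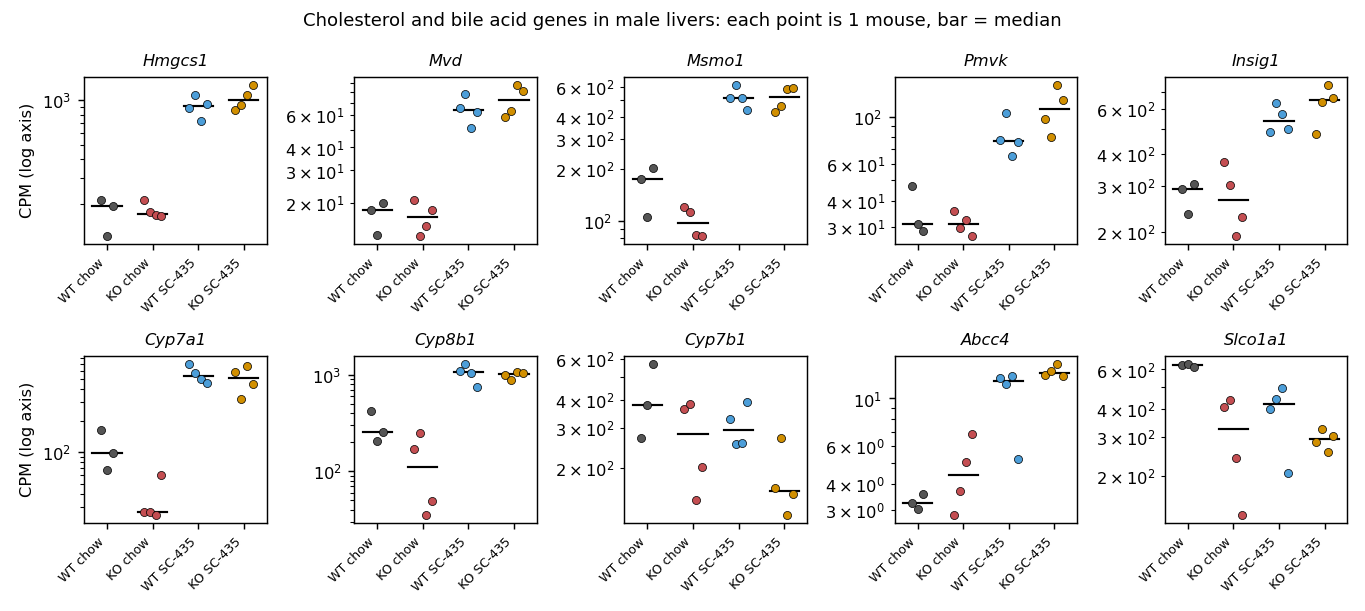
CPM (log axis, own scale in each panel) of 5 cholesterol synthesis and control genes (top) and 5 bile acid genes (bottom) in each mouse of the 4 male groups, with bars at the medians. The 5 sterol genes, *Cyp7a1* and *Cyp8b1* are high in both SC-435 groups and lower in both chow groups. *Abcc4* has 1 WT SC-435 mouse, replicate 4, far below the other 3.

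Genes of lipid storage and handling rose in part. Of 19 genes for lipid droplets and fat-cell-type proteins, 6 were called higher, beside 1.83% of all genes, none lower, and the median was 0.91. A gene near 0 in WT livers could pass the filter through treated KO livers alone, so this share and median lean toward rises. The summed level of all 19 was 706 to 792 CPM in WT chow and 1000 to 1267 CPM in treated KO livers. *Cd36*, a fatty acid translocase, measured 38.9, 31.6 and 39.6 CPM in WT chow and 134, 135, 146 and 143 CPM in treated KO livers (log2 fold change 1.92 ± 0.09, adjusted p = 2.16e-05). *Fitm1*, which partitions triglyceride into droplets, measured 27.1, 25.4 and 22.03 CPM and 63.9, 54.4, 64.1 and 70.6 CPM (log2 fold change 1.34 ± 0.10, adjusted p = 0.000251). Its level in KO livers on chow was 7.83, 9.57, 4.04 and 5.75 CPM. *Mogat1*, a monoacylglycerol acyltransferase (log2 fold change 2.21 ± 0.35, adjusted p = 0.00575), and *Vldlr*, a lipoprotein receptor (log2 fold change 1.16 ± 0.21, adjusted p = 0.0104), also rose. WT mice on SC-435 had 2 of 16 tested genes of the list called higher with a median of 0.67, and KO mice on chow had a median of -0.59 over 14 tested. These medians are thus over unlike members. Summed over the list, WT SC-435 livers held 1009 to 1116 CPM and KO chow livers 631 to 887 CPM. In the fat-cell list 0 of 7 tested markers were called, while 6 lay above 0 and the median was 0.66. Against the same WT livers only 4 of its markers were tested in WT SC-435 and 3 in KO chow, so these values lean toward rises as well. The summed level of the fat-cell list was 2523 to 2924 CPM in WT chow and 3967 to 4638 CPM in treated KO livers. *Car3*, carbonic anhydrase 3, stood at 0.66 ± 0.09 (adjusted p = 0.00325), and *Cfd* (adipsin) ranged from 0.0822 to 43.9 CPM among WT and 1.02 to 68.2 CPM among treated KO livers. *Fitm1* stood at 0.60 (adjusted p = 0.801) with the left-out WT chow library kept, which held 90.5 CPM. *Mogat1* stood at 1.41 (adjusted p = 0.508) with the left-out WT chow library kept, which held 0.948 CPM. *Vldlr* was not called without WT chow replicate 3 (0.98, adjusted p = 0.0448), nor with the 4 male groups in a single fit (1.15, adjusted p = 0.0991).

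In fatty acid and triglyceride synthesis 3 of 22 genes were called higher and none lower, beside 1.83% and 0.798% of all genes, with a median of 0.55. These were *Acss2*, which makes acetyl-CoA from acetate (log2 fold change 1.45 ± 0.30, adjusted p = 0.0173), and the fatty acid elongases *Elovl3* (log2 fold change 1.34 ± 0.15, adjusted p = 0.0015) and *Elovl5* (log2 fold change 1.10 ± 0.29, adjusted p = 0.0409), of which *Elovl5* overlapped between the groups. Of 25 genes of fatty acid oxidation and PPARalpha, 4 were called higher and none lower, beside the same shares of all genes, with a median of 0.37. *Pdk4*, which restrains pyruvate oxidation, measured 3.18, 2.48 and 5.18 CPM in WT chow and 26.3, 24.96, 11.01 and 24.3 CPM in treated KO livers (log2 fold change 2.58 ± 0.35, adjusted p = 0.00288). *Fgf21* (log2 fold change 1.96 ± 0.43, adjusted p = 0.0201), *Angptl4*, an inhibitor of lipoprotein lipase (log2 fold change 1.19 ± 0.25, adjusted p = 0.019), and *Acot2*, a mitochondrial acyl-CoA thioesterase (log2 fold change 1.08 ± 0.24, adjusted p = 0.0207), made up the rest. *Acss2* was not called without WT chow replicate 3 (1.29, adjusted p = 0.0866). *Elovl3* was not called with the 4 male groups in a single fit (1.33, adjusted p = 0.0691). *Elovl3* stood at -0.09 (adjusted p = 0.986) with the left-out WT chow library kept, which held 1399.8 CPM. *Elovl5* was not called without WT chow replicate 3 or 4 or KO SC-435 replicate 1, 3 or 4 (0.85 to 1.08, adjusted p 0.0683 to 0.153). *Fgf21* was not called without WT chow replicate 2, 3 or 4 or KO SC-435 replicate 4 (1.83 to 2.20, adjusted p 0.0533 to 0.0661), nor with the 4 male groups in a single fit (1.95, adjusted p = 0.112). *Fgf21* stood at 1.02 (adjusted p = 0.753) with the left-out WT chow library kept, which held 0.948 CPM. *Angptl4* was not called without WT chow replicate 2 or 4 (1.03 to 1.09, adjusted p 0.0586 to 0.0622). *Angptl4* stood at -0.10 (adjusted p = 0.981) with the left-out WT chow library kept, which held 542 CPM. *Acot2* was not called without WT chow replicate 3 or 4 or KO SC-435 replicate 3 (0.88 to 1.04, adjusted p 0.0279 to 0.0925), nor with the 4 male groups in a single fit (1.07, adjusted p = 0.0996).

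Genes that differ between male and female mouse liver moved in both directions. From the male-biased list 7 of 26 tested genes were called lower (beside 0.798% of all genes) and 1, *Elovl3*, higher, with a median of -0.51. *Hsd3b5*, a male-type steroid dehydrogenase, measured 313, 337 and 407 CPM in WT chow and 63.4, 203, 45.02 and 96.5 CPM in treated KO livers (log2 fold change -1.79 ± 0.43, adjusted p = 0.0271). The major urinary protein genes lie in a cluster of near-identical copies on chromosome 4, so the share of reads given to each copy is uncertain. Of these *Mup7* measured 6184, 9555 and 9158 CPM and 2048, 4479, 2088 and 3438 CPM (log2 fold change -1.47 ± 0.28, adjusted p = 0.0118). *Mup15* measured 228, 253 and 2274 CPM and 135, 119, 33.3 and 66.4 CPM (log2 fold change -3.38 ± 0.82, adjusted p = 0.0283). *Mup11* stood at -1.78 ± 0.48 (adjusted p = 0.0424) in groups that overlapped. *Mup4* measured 2.66, 3.65 and 3.37 CPM in WT chow livers and had no read in any treated KO library. That was at least 39.97-fold lower against a floor of 3 counts in that group's library of smallest TMM-scaled size. It was also at 0 in 3 of 4 KO chow livers and 2 of 4 WT SC-435 livers. *Mup4* was called in the comparison of these 7 livers and not with the 4 male groups in a single fit (adjusted p = 0.0511). *Hsd3b5* was not called without WT chow replicate 2, 3 or 4 or KO SC-435 replicate 1 or 4 (-1.87 to -1.62, adjusted p 0.0549 to 0.0867). *Mup7* was not called without WT chow replicate 3 (-1.36, adjusted p = 0.0576). *Mup15* was not called without WT chow replicate 4 or KO SC-435 replicate 1 or 4 (-3.67 to -1.45, adjusted p 0.0519 to 0.0831), nor with the 4 male groups in a single fit (-3.40, adjusted p = 0.0573). *Mup11* was not called without WT chow replicate 3 or 4 or KO SC-435 replicate 1, 3 or 4 (-1.94 to -1.10, adjusted p 0.0536 to 0.139), nor with the 4 male groups in a single fit (-1.80, adjusted p = 0.121).

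From the female-biased list 6 of 18 tested genes were called higher and none lower, beside 1.83% and 0.798% of all genes, with a median of 1.19. The list held 28 genes, and the rest were too low to test. A gene near 0 in WT livers could pass that filter through treated KO livers alone, so this share and median lean toward rises. The summed level of all 28 was 94.5 to 349 CPM in WT chow and 510 to 767 CPM in treated KO livers. The organic anion transporter gene *Slc22a26* measured 0.219, 0.3503 and 0.0773 CPM in WT chow and 2.802, 2.66, 3.39 and 2.63 CPM in treated KO livers (log2 fold change 3.70 ± 0.36, adjusted p = 0.000692). Its neighbours in the family, *Slc22a27* (log2 fold change 3.27 ± 0.47, adjusted p = 0.00365) and *Slc22a29* (log2 fold change 2.62 ± 0.51, adjusted p = 0.0126), also rose from a level near 0. All 3 were also called higher in WT males on SC-435, where *Slc22a26* held 1.75, 1.89, 3.22 and 2.501 CPM, while in KO males on chow it held 0.1796, 0.138, 0.394 and 0.229 CPM. In female WT livers on chow the same gene measured 221, 224, 148 and 149 CPM, far above every male liver. *Ntrk2*, the fourth member named, was high in KO livers instead. It measured 6.24, 5.68, 23.6 and 17.6 CPM on chow and 9.12, 2.25, 10.6 and 3.43 CPM on SC-435. WT livers held 0.411, 0.375 and 1.29 CPM on chow and 0.902, 0.886, 0.745 and 0.592 CPM on SC-435.

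Among enzymes of drug metabolism, the xenobiotic P450 list had 3 of 23 genes called higher, beside 1.83% of all genes. These were all of the *Cyp2c* cluster, whose sequences are close enough that reads may be shared. *Cyp2c38* measured 29.4, 23.5 and 16.1 CPM in WT chow and 63.3, 47.2, 72.996 and 61.9 CPM in treated KO livers (log2 fold change 1.40 ± 0.20, adjusted p = 0.00363). *Cyp2c39* (log2 fold change 1.42 ± 0.27, adjusted p = 0.0123) and *Cyp2c40* (log2 fold change 1.56 ± 0.41, adjusted p = 0.0372) were the others. Among sulfotransferases and glucuronosyltransferases *Sult5a1* fell, from 30.6, 45.3 and 66.95 CPM to 14.5, 24.7, 17.04 and 19.5 CPM (log2 fold change -1.34 ± 0.25, adjusted p = 0.0113). Its level in KO livers on chow was lower still, at 7.6998, 7.496, 1.202 and 4.39 CPM. *Sult2a1* and *Sult2a2*, the bile acid sulfotransferases, were too low to test, with *Sult2a1* at 0 in all 7 livers and *Sult2a2* at 0 in the WT livers and 0, 0.0244, 0.135 and 0 CPM in treated KO livers. In the glutathione and NRF2 list 3 of 22 genes were called higher (beside 1.83% of all genes), none lower, with a median of 0.39. The glutathione transferases *Gsta1* (log2 fold change 2.43 ± 0.40, adjusted p = 0.00631) and *Gstm3* (log2 fold change 1.07 ± 0.18, adjusted p = 0.00765) and the quinone reductase *Nqo1*, at 4.82, 4.38 and 5.899 CPM and 11.2, 11.5, 10.8 and 9.77 CPM (log2 fold change 1.09 ± 0.13, adjusted p = 0.00164), were the members called. *Cyp2c39* was not called without WT chow replicate 3 (1.51, adjusted p = 0.0501). *Cyp2c40* was not called without WT chow replicate 2, 3 or 4 or KO SC-435 replicate 2 or 3 (1.27 to 1.59, adjusted p 0.0603 to 0.136), nor with the 4 male groups in a single fit (1.55, adjusted p = 0.107). *Sult5a1* was not called with the 4 male groups in a single fit (-1.35, adjusted p = 0.0586). *Gsta1* was not called with the 4 male groups in a single fit (2.42, adjusted p = 0.0558). *Gstm3* was not called without KO SC-435 replicate 3 (0.84, adjusted p = 0.000333), nor with the 4 male groups in a single fit (1.06, adjusted p = 0.151). *Nqo1* was not called without WT chow replicate 3 (0.996, adjusted p = 0.0112).

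Clock genes set the 3 WT chow livers apart. Of 19 clock genes 3 were called higher and 4 lower in treated KO livers, beside 1.83% and 0.798% of all genes, with a median of -0.46. The activator *Arntl* (BMAL1) measured 4.47, 2.83 and 1.96 CPM in WT chow and 11.7, 18.5, 8.02 and 17.4 CPM in treated KO livers (log2 fold change 2.17 ± 0.35, adjusted p = 0.00602). Its relative *Npas2* measured 0.439, 0.325 and 0.232 CPM and 1.57, 3.32, 0.942 and 3.13 CPM (log2 fold change 2.75 ± 0.50, adjusted p = 0.0103). The output factor *Dbp* measured 138, 129 and 134 CPM and 35.5, 23.8, 76.4 and 20.1 CPM (log2 fold change -1.79 ± 0.38, adjusted p = 0.018). The repressor *Bhlhe41* (DEC2) measured 13.8, 11.5 and 10.6 CPM and 1.82, 1.32, 6.76 and 0.977 CPM (log2 fold change -2.16 ± 0.54, adjusted p = 0.0312). Among male livers the activators were lowest and *Dbp* and *Bhlhe41* highest in the 3 WT chow livers. *Dbp* lay at 2.896 to 26.2 CPM in KO chow and 19.5 to 63.4 CPM in WT SC-435 livers and was 16.3 CPM in the WT chow library left out. No time of tissue collection is given in the sources used here, and the part of the clock transcripts in the other calls was not tested. *Npas2* was not called without WT chow replicate 3 (2.73, adjusted p = 0.0553). *Npas2* stood at 0.68 (adjusted p = 0.892) with the left-out WT chow library kept, which held 4.704 CPM. With that library kept, *Arntl* stood at 1.55 (adjusted p = 0.389), *Dbp* at -1.44 (adjusted p = 0.613) and *Bhlhe41* at -1.79 (adjusted p = 0.607). It held *Arntl* at 9.67 CPM and *Bhlhe41* at 1.14 CPM. *Dbp* was not called without WT chow replicate 3 (-1.82, adjusted p = 0.0642), nor with the 4 male groups in a single fit (-1.81, adjusted p = 0.0837). *Bhlhe41* was not called without WT chow replicate 2, 3 or 4 or KO SC-435 replicate 1, 2 or 4 (-2.25 to -1.89, adjusted p 0.055 to 0.0961).

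The window before the start of *Bhlhe41* is shown because it holds an E-box, CACGTG, the element that the ARNTL complex binds, in capitals here (RefSeq, GRCm38.p6, chr6:145865421-145865670, minus strand).
*Bhlhe41*: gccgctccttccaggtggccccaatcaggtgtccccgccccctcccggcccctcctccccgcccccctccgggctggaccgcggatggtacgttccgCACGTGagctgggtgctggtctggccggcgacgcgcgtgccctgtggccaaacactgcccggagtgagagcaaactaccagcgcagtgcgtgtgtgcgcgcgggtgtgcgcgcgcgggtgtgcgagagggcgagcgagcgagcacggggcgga
An E-box in these letters, which read the same on both strands, was in 6 of 21 windows (28.6%) of the clock genes matched, beside 6.02% of all windows, 6.43% of windows of genes called higher and 9.78% of those of genes called lower.

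**Figure D3:**
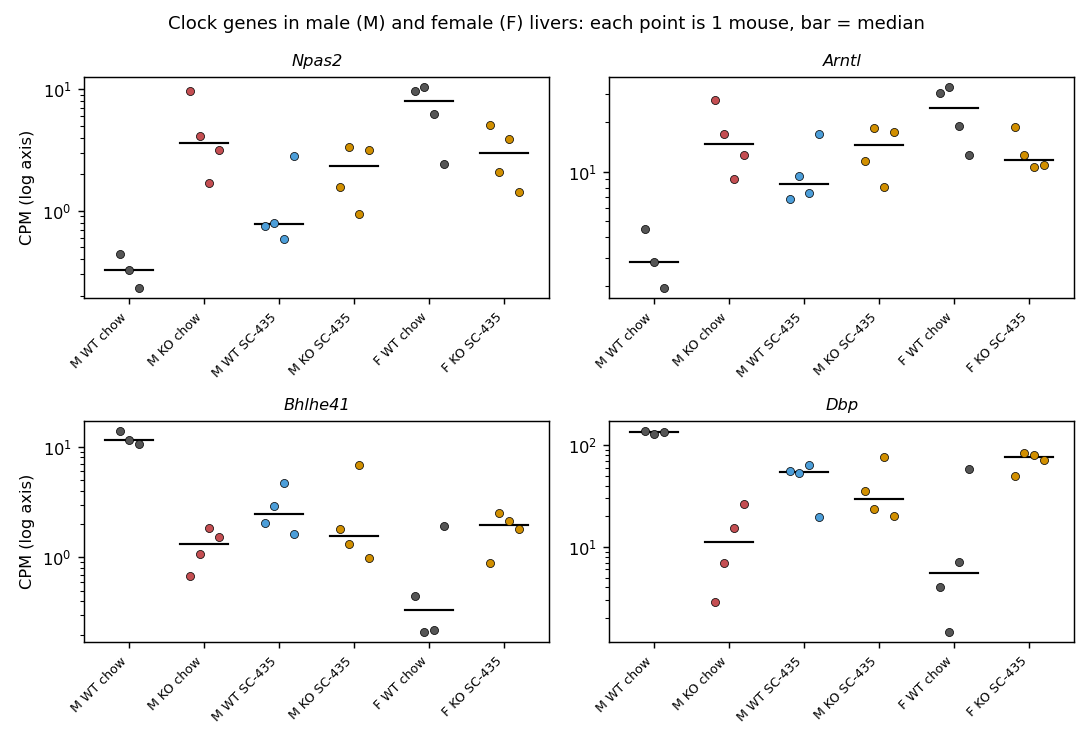
CPM (log axis, own scale in each panel) of 4 clock genes in each mouse of the 4 male groups (M) and of female (F) WT chow and KO SC-435 mice, with bars at the medians. The 3 male WT chow mice are lowest for *Npas2* and *Arntl* and highest for *Bhlhe41* and *Dbp* among the male mice, while the female WT chow mice are high for *Npas2* and *Arntl* and low for *Bhlhe41*, with *Dbp* spread from 1.46 to 57.8 CPM.

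Among 18 genes of glucose and glycogen metabolism 2 were called higher and 2 lower, beside 1.83% and 0.798% of all genes. *Igfbp1*, already named among the largest rises, measured 9.05, 19.4 and 18.2 CPM in WT chow and 101, 87.3, 45.9 and 309 CPM in treated KO livers. *Ppp1r3b*, which brings phosphatase to glycogen, measured 120.2, 119.6 and 134 CPM and 239, 205, 436 and 263 CPM (log2 fold change 1.19 ± 0.22, adjusted p = 0.0111). *Pklr*, liver pyruvate kinase, fell from 434, 355 and 209 CPM to 154, 151, 190.1 and 143 CPM (log2 fold change -1.07 ± 0.21, adjusted p = 0.0127). *Pfkfb3*, a regulator of glycolysis, stood at -1.21 ± 0.32 (adjusted p = 0.0414) with overlapping groups. *Asns*, asparagine synthetase, was the 1 gene called of 18 in the endoplasmic reticulum and integrated stress list, beside 1.83% of all genes called higher. It measured 1.18, 1.78 and 12.8 CPM in WT chow and 29.6, 35.4, 29.8 and 28.6 CPM in treated KO livers (log2 fold change 2.54 ± 0.65, adjusted p = 0.0353). *Cdkn1a*, the cell cycle inhibitor p21, was the 1 gene called of 26 in the cell cycle list, beside the same share. It measured 1.23, 1.95 and 1.42 CPM and 4.92, 4.96, 11.5 and 6.67 CPM (log2 fold change 2.17 ± 0.33, adjusted p = 0.00472). *Ppp1r3b* was not called without WT chow replicate 3 or KO SC-435 replicate 3 (0.91 to 1.15, adjusted p 0.00132 to 0.0599), nor with the 4 male groups in a single fit (1.18, adjusted p = 0.059). *Pklr* was not called without WT chow replicate 2 or 3 (-1.03 to -0.83, adjusted p 0.0369 to 0.0599). *Pfkfb3* was not called without WT chow replicate 3 or 4 or KO SC-435 replicate 1, 2 or 4 (-1.27 to -0.87, adjusted p 0.0707 to 0.174), nor with the 4 male groups in a single fit (-1.22, adjusted p = 0.209). *Asns* was not called without WT chow replicate 2 or 3 or KO SC-435 replicate 1, 2 or 4 (2.07 to 2.56, adjusted p 0.0564 to 0.118). *Asns* without WT chow replicate 4 stood at 4.37, adjusted p = 3.01e-05. *Cdkn1a* stood at -0.48 (adjusted p = 0.933) with the left-out WT chow library kept, which held 34.1 CPM.

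Genes of inflammation and scarring, which separate KO livers on chow from WT livers, lay near the WT level in treated KO livers. None of 20 tested chemokine and cytokine genes and none of 33 extracellular matrix genes was called, with medians of 0.07 and 0.10. In KO livers on chow against the same WT mice, 8 of 26 and 16 of 34 tested genes of these lists were called higher, beside 3.18% of all genes there, with medians of 1.38 and 1.53. A gene near 0 in WT livers could pass the filter there through KO chow livers alone, so the medians are over unlike members. Summed over the list, chemokines and cytokines held 464 to 489 CPM in WT chow, 467 to 513 in treated KO and 683 to 1601 in KO chow livers. Matrix genes held 2282 to 2503, 1613 to 2001 and 2647 to 4171 CPM in the same order. *Ccl2*, a monocyte chemokine, measured 0.192, 0.375 and 0.361 CPM in WT chow, 0.393, 0.367, 0.296 and 0.451 CPM in treated KO and 3.64, 7.77, 5.09 and 5.01 CPM in KO chow livers. Its log2 fold change in treated KO livers had a 95% interval of -0.53 to 1.07. *Cxcl1*, a neutrophil chemokine, measured 3.26, 3.15 and 3.504 CPM, 2.19, 2.05, 3.42 and 4.28 CPM and 37.5, 60.7, 12.9 and 11.04 CPM in the same order, with an interval of -0.73 to 0.41. *Col1a1*, a chain of fibrillar collagen, measured 6.61, 9.03 and 16.6 CPM, 13.4, 17.7, 10.7 and 7.24 CPM and 46.2, 22.2, 105 and 220.2 CPM, with an interval of -0.59 to 0.96. The interval of *Ccl2* includes 1, so these 7 livers do not tell a rise of that size from none, and that of *Col1a1* stops short of it. The most abundant genes of the chemokine list, *Cxcl12* and *Ccl9*, stood at -0.02 ± 0.08 (adjusted p = 0.912) and -0.07 ± 0.08 (adjusted p = 0.61).

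The other inflammatory and fibrotic genes that the study names were likewise not called. *Il1b* stood at 0.11 ± 0.41 (adjusted p = 0.889), *Tgfb1* at 0.02 ± 0.15 (adjusted p = 0.938) and *Cxcl10* at -0.21 ± 0.45 (adjusted p = 0.795). The myofibroblast actin *Acta2* stood at -0.13 ± 0.72 (adjusted p = 0.923), the cholangiocyte keratin *Krt19* at 0.48 ± 0.27 (adjusted p = 0.275) and the macrophage receptor *Adgre1* (F4/80) at 0.04 ± 0.24 (adjusted p = 0.924). The intervals of *Acta2* (-1.76 to 1.49) and *Krt19* (-0.12 to 1.08) include 1, whereas that of *Tgfb1* (-0.31 to 0.35) does not. *Timp1* and *Cxcl2* were too low to test in this comparison, at 0.197, 0.0978, 0.0539 and 0.125 CPM and 0.172, 0.0978, 0.0539 and 0.0752 CPM in treated KO livers. KO livers on chow held 1.03, 0.759, 3.37 and 2.13 CPM and 0.786, 0.667, 0.828 and 0.5997 CPM. *Fn1*, the most abundant matrix gene, was lower by adjusted p and within the fold limit, at -0.57 ± 0.09 (adjusted p = 0.00472), and *Dcn*, decorin, stood at -0.04 ± 0.13 (adjusted p = 0.852).

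Of 24 acute phase genes *Lcn2*, lipocalin 2, and *Saa2*, serum amyloid A2, were called higher and none lower, beside 1.83% of all genes called higher. *Lcn2* measured 0.7401, 1.08 and 1.67 CPM in WT chow, 4.84, 4.55, 2.75 and 4.41 CPM in treated KO and 18.2, 12.8, 44.9 and 37.99 CPM in KO chow livers (treated KO against WT chow, log2 fold change 1.82 ± 0.30, adjusted p = 0.00664). *Saa2* measured 5.45, 8.81 and 9.66 CPM, 27.7, 24.6, 20.1 and 21.4 CPM and 117, 78.5, 162 and 34.3 CPM (log2 fold change 1.55 ± 0.19, adjusted p = 0.00193). For both genes every treated KO value lay above the WT chow values and below the KO chow values. In WT SC-435 livers other than replicate 4, *Lcn2* was 2.07 to 5.15 CPM, a range that held every treated KO value. *Saa2* was 8.40 to 15.2 CPM in those livers, below every treated KO value. Replicate 4 held *Lcn2* at 770 CPM and *Saa2* at 9181 CPM. *Ifi27l2b*, an interferon-induced gene, also lay between the WT chow and KO chow values in treated KO livers. It measured 1.23, 0.801 and 1.21 CPM, 4.498, 3.37, 3.5003 and 3.36 CPM and 17.02, 10.4, 32.2 and 36.97 CPM (log2 fold change 1.76 ± 0.22, adjusted p = 0.00191) and was the 1 gene called of 29 in its list, a share near the 1.83% of all genes. *Lcn2* was not called with the 4 male groups in a single fit (1.81, adjusted p = 0.616). *Lcn2* stood at 0.91 (adjusted p = 0.762) with the left-out WT chow library kept, which held 5.31 CPM. *Saa2* was not called with the 4 male groups in a single fit (1.54, adjusted p = 0.666). *Saa2* stood at 1.02 (adjusted p = 0.492) with the left-out WT chow library kept, which held 21.9 CPM. *Ifi27l2b* was not called with the 4 male groups in a single fit (1.75, adjusted p = 0.0648).

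Markers of non-hepatocyte cells gave 1 gene higher and 2 lower over the lists together, beside 1.83% and 0.798% of all genes. In bulk RNA fewer cells of a type cannot be told apart from less RNA per cell. None of 26 macrophage, 15 stellate cell and fibroblast, 12 endothelial, 12 T and NK cell, 11 dendritic cell and MHC class II, 3 neutrophil and 6 erythroid markers tested was called. Their medians lay between -0.11 (erythroid) and 0.50 (T and NK cells). In KO livers on chow 10 of 26 macrophage and 12 of 18 cholangiocyte markers tested there were called higher, beside 3.18% of all genes, with medians of 1.35 and 2.08. Some cholangiocyte markers could pass the filter there through KO chow livers alone, so that share and median lean toward rises. The summed macrophage level was 497 to 787 CPM in WT chow, 552 to 806 CPM in treated KO and 677 to 2375 CPM in KO chow livers. The summed stellate level was 199 to 219 CPM, 169.5 to 225 CPM and 244 to 504 CPM. *Clec4f* and *Cd5l*, the macrophage markers with the highest levels, stood at -0.02 ± 0.15 (adjusted p = 0.95) and -0.03 ± 0.20 (adjusted p = 0.932), and *Reln* and *Rgs5* of the stellate list at -0.32 ± 0.15 (adjusted p = 0.181) and 0.12 ± 0.14 (adjusted p = 0.608). The most abundant of the other lists, *Eng* and *Stab2* for endothelium, *Cd4* and *Lck* for T and NK cells, *Csf3r* and *Mmp9* for neutrophils and *Alas2* and *Hbb-bs* for erythroid cells, lay between -0.38 (*Csf3r*) and 0.73 (*Lck*). Only 3 of 13 neutrophil markers were high enough to test, and their summed level with the untested ones was 2.75 to 4.95 CPM in WT chow, 2.48 to 4.205 CPM in treated KO and 6.33 to 16.5 CPM in KO chow livers.

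Among 16 cholangiocyte markers none was called higher, and *Onecut1*, a transcription factor that hepatocytes also express, fell from 80.7, 127 and 91.99 CPM to 36.3, 67.6, 23.96 and 31.7 CPM (log2 fold change -1.33 ± 0.31, adjusted p = 0.0256). The summed level of the list was 146 to 195 CPM in WT chow, 110.2 to 152 CPM in treated KO and 199 to 1334 CPM in KO chow livers. Without *Onecut1* the sum was 56.3 to 67.5 CPM in WT chow, 80.5 to 93.1 CPM in treated KO and 195 to 1259 CPM in KO chow livers, so that every treated KO liver lay above every WT chow liver. The median log2 fold change over the list was 0.41, with 12 of 16 markers above 0, and without WT replicate 4 it was 0.18. *Ighm*, the immunoglobulin M heavy chain, was the gene called higher of 11 B and plasma cell markers. It measured 6.798, 3.68 and 5.101 CPM in WT chow and 18.3, 7.26, 32.1 and 27.9 CPM in treated KO livers (log2 fold change 2.03 ± 0.45, adjusted p = 0.0207), 4.33, 5.38, 8.26 and 6.53 CPM in KO chow and 4.83, 9.1005, 4.33 and 3.07 CPM in WT SC-435 livers. *Cela1*, listed for pancreatic acinar cells and the gene called of 2 tested there, measured 27.1, 31.8 and 40.7 CPM in WT chow and 13.1, 14.4, 16.6 and 14.5 CPM in treated KO livers (log2 fold change -1.19 ± 0.13, adjusted p = 0.00134). WT replicate 4 held more MHC class II transcript than the other WT livers, with *Cd74* at 57.9, 56.4 and 165 CPM and 97.9, 102, 88.99 and 151 CPM in treated KO livers. Without that replicate the MHC class II median moved from 0.24 to 0.83, and *H2-Ab1*, an MHC class II chain at 0.24 ± 0.37 (adjusted p = 0.717) with all 7 livers, was called higher at 1.003 (adjusted p = 0.0174). *Onecut1* was not called without WT chow replicate 3 or KO SC-435 replicate 1 or 4 (-1.29 to -1.12, adjusted p 0.0626 to 0.11), nor with the 4 male groups in a single fit (-1.34, adjusted p = 0.386). *Ighm* was not called without WT chow replicate 3 or 4 or KO SC-435 replicate 4 (1.83 to 2.02, adjusted p 0.0556 to 0.0975).

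**Figure D4:**
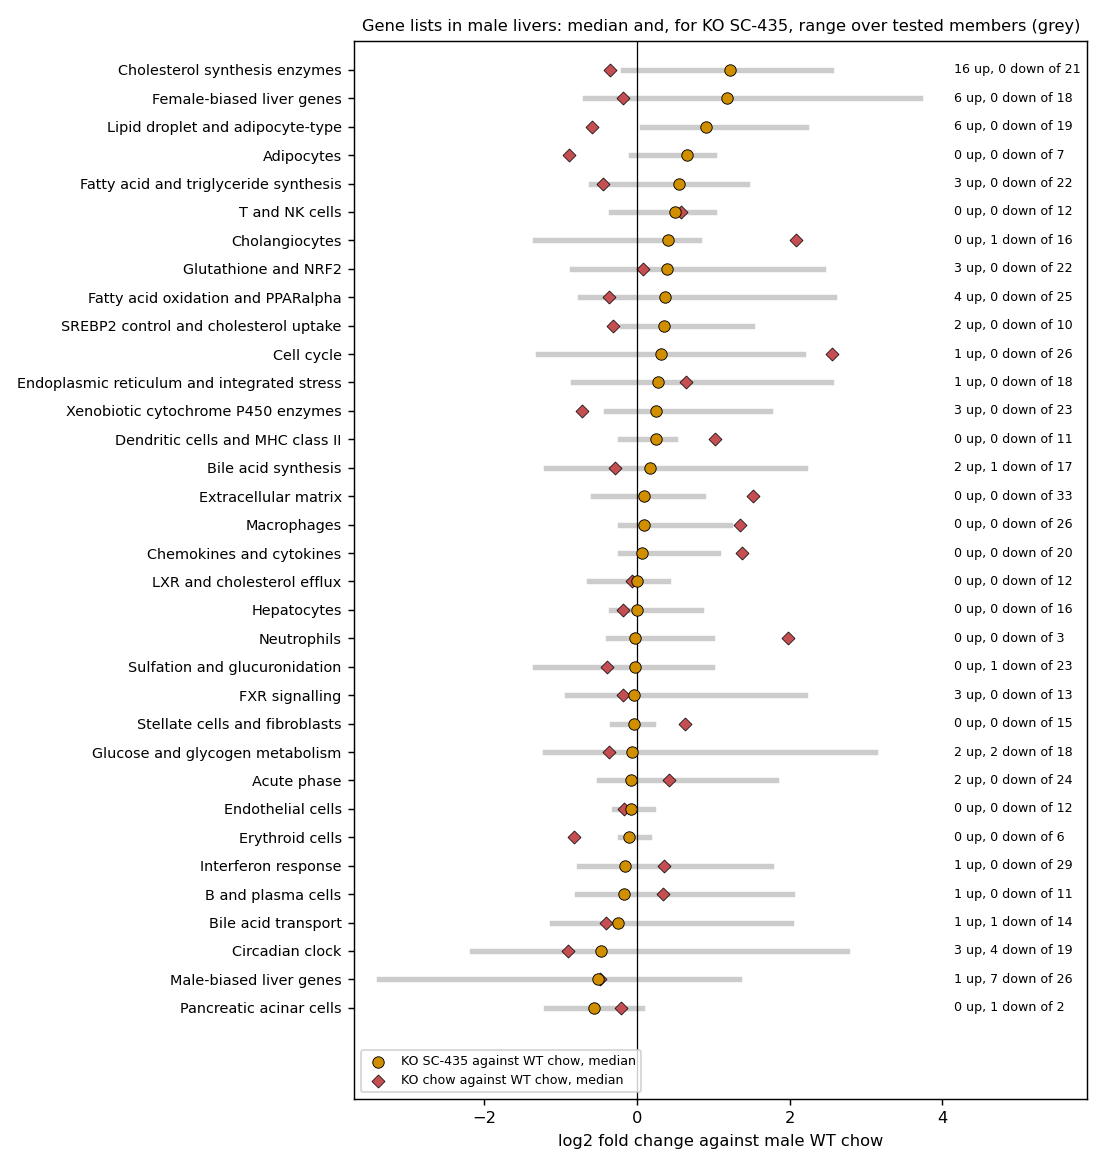
Median log2 fold change of the tested genes in each of 34 lists for male KO SC-435 (circles) and male KO chow (diamonds) against the same 3 male WT chow livers, with the range over genes for KO SC-435 in grey and its called genes written at the right. Cholesterol synthesis enzymes stand at 1.22 with 16 of 21 called, and the lists for chemokines, matrix, macrophages and cholangiocytes lie near 0 to 0.41 where the chow diamonds lie at 1.35 to 2.08. Each median is over the genes tested in its own comparison, so a circle and its diamond can rest on unlike members (chemokines 20 and 26).

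Between treated KO and treated WT males, 4 genes were called (0.0259% of 15434), with 1366 genes at an unadjusted p under 0.05 and 79 called by DESeq2. *Lrtm2* was higher (log2 fold change 6.95 ± 0.41, adjusted p = 9.51e-05). *Camk2b* (log2 fold change -2.12 ± 0.12, adjusted p = 9.51e-05) and *Cyp2c70* (log2 fold change -1.37 ± 0.14, adjusted p = 0.00627) were lower, as was *Aatk*, a kinase gene named after its value was seen (-1.46 ± 0.13, adjusted p = 0.00197). Without WT SC-435 replicate 4, the library with the acute phase transcripts, 6 genes were called higher and 5 lower. *Fabp5*, a fatty acid binding protein (1.97 ± 0.13, adjusted p = 0.000196), and *Osbpl3* (1.01 ± 0.10, adjusted p = 0.00301) were then among the higher ones. Against KO mice on chow, treated KO mice had 301 genes called higher and 730 lower (6.45% of 15984 in either direction). Among the lower genes, 4.57% of those tested, were 21 of 34 matrix, 13 of 26 macrophage and 14 of 18 cholangiocyte genes. A gene near 0 in treated KO livers could pass that filter through KO chow livers alone, so such shares lean toward falls. Among the higher genes, 1.88% of those tested, were 19 of 21 cholesterol synthesis enzymes.

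The same comparison in females rests on 8 other libraries, 4 WT on chow and 4 KO on SC-435. It gave 431 genes higher (2.71% of 15881) and 193 lower (1.22%). Of the genes called higher in males, 107 were called higher in females, which is 37.0% of the male and 24.8% of the female list, and of those called lower 36 were shared, 28.6% and 18.7%. Another 8 genes were higher in males and lower in females, and 3 the reverse. Among male-higher genes tested in females, 219 of 272 had a positive female value with a median of 0.92, and among male-lower genes 79 of 106 had a negative one with a median of -0.73. Cholesterol synthesis had 17 of 21 enzymes called higher in females with a median of 1.51. *Cyp7a1* (log2 fold change 3.66 ± 0.45, adjusted p = 0.00071), *Abcc4* (log2 fold change 1.88 ± 0.16, adjusted p = 9.98e-05), *Lrtm2* (log2 fold change 6.90 ± 0.35, adjusted p = 5.33e-06) and *Camk2b* (log2 fold change -1.60 ± 0.21, adjusted p = 0.00101) were called in the male direction.

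The effect itself differed between the sexes, by an interaction test, for 783 of 16841 genes (4.65%), 435 of them more positive and 348 more negative in males. Among genes averaging 50 counts or more, the 5 smallest adjusted p values belonged to *Slc22a26*, *Fabp2*, *Arl4a*, *Lnx2* and *Hsph1*. *Slc22a26* was higher in treated KO males and stood at -0.49 ± 0.17 (adjusted p = 0.068) in females, a difference of 4.19 ± 0.37 (adjusted p = 9.94e-05). *Fabp2*, the intestinal-type fatty acid binding protein, measured 56.3, 39.9, 49.99 and 54.3 CPM in female WT and 19.3, 17.8, 17.3 and 16.4 CPM in female treated KO livers. In males it measured 39.7, 37.2 and 36.1 CPM and 46.4, 34.6, 41.98 and 51.2 CPM, a difference of 1.70 ± 0.17 (adjusted p = 0.000345). The heat shock gene *Hsph1* fell in females (-1.36 ± 0.11, adjusted p = 9.98e-05) and stood at 0.49 ± 0.16 (adjusted p = 0.0734) in males. The GTPase gene *Arl4a* fell in females (-1.13 ± 0.12, adjusted p = 0.000382) and stood at 0.76 ± 0.15 (adjusted p = 0.0126) in males. The ubiquitin ligase gene *Lnx2* stood at -0.66 ± 0.10 (adjusted p = 0.00174) in females and 0.46 ± 0.07 (adjusted p = 0.00541) in males.

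Several named genes of lipid and glucose handling, and *Cdkn1a*, also differed between the sexes. *Mogat1* was called higher in males and stood at -0.83 ± 0.38 (adjusted p = 0.172) in females (difference 3.04 ± 0.52, adjusted p = 0.00516). *Pdk4* was called higher in males and stood at -0.55 ± 0.34 (adjusted p = 0.305) in females (difference 3.13 ± 0.56, adjusted p = 0.00605). By contrast, *Angptl4* (-1.21 ± 0.32, adjusted p = 0.026), *Fgf21* (-2.18 ± 0.61, adjusted p = 0.0343), *Ppp1r3b* (-1.10 ± 0.13, adjusted p = 0.000529) and *Cdkn1a* (-3.26 ± 0.69, adjusted p = 0.00986) were called higher in males and lower in females. *Cdkn1a* measured 12.1, 40.2, 56.9 and 3.17 CPM in female WT and 3.85, 2.35, 2.73 and 2.68 CPM in female treated KO livers. The lipid droplet list had a median of -0.29 in females with 0 called higher and 3 lower of 15. In males 19 were tested, so the 2 medians are over unlike members. Summed over the whole list, female WT chow livers held 892 to 1131 CPM and female treated KO livers 698 to 815 CPM. Fatty acid and triglyceride synthesis went the same way in both sexes, with a female median of 0.41 and 8 of 22 genes called higher and none lower. The clock genes *Npas2* (3.95 ± 0.80, adjusted p = 0.0119), *Arntl* (2.99 ± 0.50, adjusted p = 0.00415) and *Bhlhe41* (-3.53 ± 0.90, adjusted p = 0.0356) also differed between the sexes, and their part in the other sex differences was not tested. With the left-out WT chow library kept, 19 genes had a sex difference in place of 783.

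**Figure D5:**
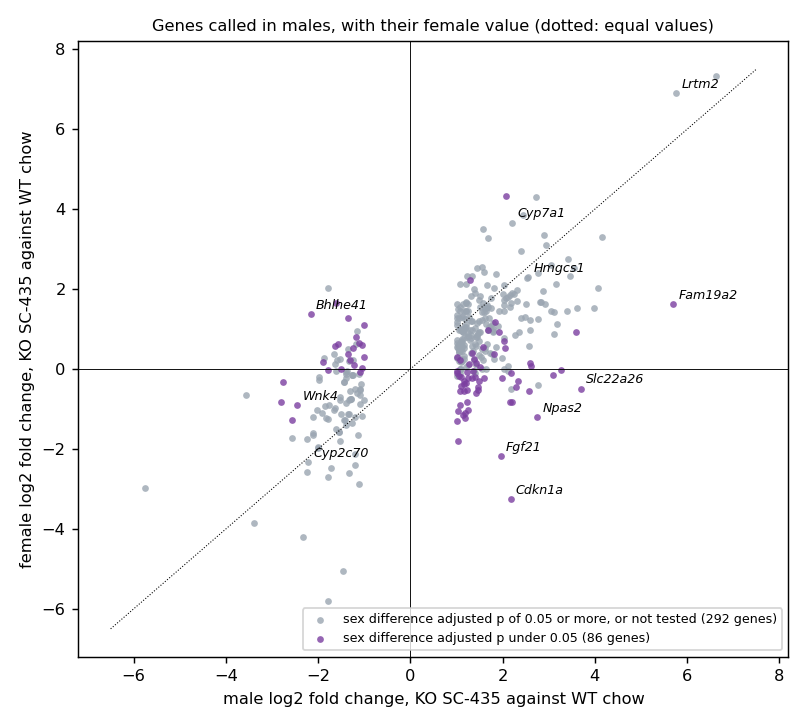
Log2 fold change of KO SC-435 against WT chow in males (x axis) and females (y axis) for the 378 of 415 genes called in males that were tested in females, with 86 genes that had a sex difference in purple. Most points lie in the lower left and upper right, near *Lrtm2*, *Hmgcs1* and *Cyp2c70*, while *Cdkn1a*, *Fgf21*, *Npas2*, *Slc22a26* and *Bhlhe41* lie across the horizontal axis from their male direction.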

How the data were processed

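Counts per gene for all 32 libraries, 54532 annotated genes, were used as the authors deposited them. The submitters' processing notes name HISAT2 2.0.5 for alignment to mm10 and featureCounts 1.5.0-p3 for counting, and the authors used DESeq2 1.20.0 for their own comparisons. The table's columns of fold changes and p values from those comparisons were not used. Whether counting used strand is not given in the sources used here, so reads of overlapping antisense genes cannot be told apart.

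Treated KO livers (n = 4) were compared with WT chow livers (n = 3) in R 4.3.3 with edgeR 4.0.16 (TMM scaling, filterByExpr, glmQLFit and glmQLFTest, no covariate, Benjamini-Hochberg adjustment over the genes tested). The SE is the absolute log2 fold change over the square root of F, and intervals cover 95%. The test was tried on simulated counts with 200 changed genes. CPM used 1 TMM scaling over all 32 libraries. Depth was 37395618 to 42241332 counts per library, and intervals from a single mouse's count would cover counting error only. Replicates of a group differed by more than sampling noise in every pair. The same test was run in females and for the side comparisons, and the sex difference was the interaction term over 15 libraries. DESeq2 1.42.0, limma 3.58.1 (voom), other scalings and filters, a replicate block, a 4-group fit and leaving out each library were alternatives.

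The members and gene lists were chosen with earlier results of these data known. Named genes were *Cyp2c70*, the 10 largest rises and falls (called, protein coding, averaging 50 counts or more, groups not overlapping), the genes the study names, in each list up to 4 called members (or the 2 most abundant where none was called), the 5 genes with the smallest adjusted p for the sex difference and the 3 with the smallest adjusted p in each direction. Promoter windows came from RefSeq (GRCm38.p6), 250 bases before each start, matched by symbol. Values of some single genes are not reported here.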

Additional observations from a re-analysis of the deposited data

Results flagged for a closer look

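Within the 4 treated KO males, 1 mouse lay far from the other 3 for 9 of 111 named genes, where chance alone gives about 1 group in 20. *Acot2* was 11.5 CPM in replicate 3 against 7.27 to 7.55 in the others, *Bhlhe41* 6.76 CPM in replicate 3 against 0.977 to 1.82, and *Gstm3* 254 CPM in replicate 3 against 141 to 152. *Il1b* was 0.781 CPM in replicate 3 against 2.34 to 2.41, and *Pdk4* 11.0 CPM in replicate 3 against 24.3 to 26.3. *Asns* was 35.4 CPM in replicate 2 against 28.6 to 29.8, and *Slc22a29* 0.660 CPM in replicate 2 against 1.29 to 1.38. *Fam19a2* was 7.72 CPM in replicate 4 against 5.36 to 5.70, and *Ifi27l2b* 4.50 CPM in replicate 1 against 3.36 to 3.50. Of the 9 genes 5 had replicate 3 as the mouse apart.

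The effect of treated KO against WT chow differed between males and females for 26 named genes, given here as male minus female log2 fold change. It was more positive in males for *Cdkn1a* (5.44), *Slc22a26* (4.19), *Fgf21* (4.14), *Fam19a2* (4.07), *Npas2* (3.95), *Slc22a27* (3.31), *Pdk4* (3.13), *Mogat1* (3.04) and *Arntl* (2.99). Smaller positive differences were those of *Slc22a29* (2.56), *Angptl4* (2.40), *Ppp1r3b* (2.29), *Arl4a* (1.88), *Hsph1* (1.86), *Fabp2* (1.70), *Cyp2c38* (1.60), *Elovl3* (1.57), *Lgals1* (1.34), *Lnx2* (1.12), *Cd36* (1.003), *Fitm1* (0.94), *Fam126a* (0.65) and *Lcat* (0.44). It was more negative in males for *Bhlhe41* (-3.53), *Wnk4* (-1.55) and *Hsd17b6* (-1.27). *Fam19a2*, *Lgals1*, *Fam126a* and *Cd36* stood at 1.63, 0.70, 1.19 and 0.92 in females, and *Wnk4* and *Hsd17b6* at -0.91 and -1.28. Of these genes *Npas2*, *Arntl* and *Bhlhe41* belong to the clock, in which the male WT chow livers stood apart, and the part of that in the other differences was not tested.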

How the results depend on the processing

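The counts of 289 genes higher and 126 lower depended most on the WT chow library that was left out. With replicate 1 kept they were 26 and 6, and with it kept under voom quality weights, where its weight was 0.0242, 354 and 207. Of the genes called without it, 273 of 277 higher and 114 of 114 lower ones tested kept their sign with it, and medians moved from 1.52 to 1.34 and from -1.54 to -1.33, while *Elovl3* (-0.0865), *Angptl4* (-0.10) and *Cdkn1a* (-0.48) turned. Another 53 named genes called without it kept their sign and were not called with it. Other settings gave 338 and 211 (voom quality weights without replicate 1), 112 and 34 (testing against a fold of 1.5), and 1022 and 901 (no limit on the fold). Median-of-ratios scaling gave 289 and 126, library size alone 257 and 137, and DESeq2 299 and 136. A fit of all 4 male groups gave 217 and 96. Leaving out 1 library gave 174 to 273 higher and 52 to 160 lower, fewest without WT chow replicate 3 in both directions, and 76 lower without KO SC-435 replicate 4. Of the 289 and 126 genes, 100 and 28 were called in every one of the fits by scaling, DESeq2, block, 4 groups and left-out library. A replicate block gave 148 and 44, but numbers did not pair samples, because deviations of same-numbered mice correlated at -0.17, 0.08 and -0.07. List medians moved by more than 1 SD between replicates for 15 of 34 lists with WT chow replicate 1 kept and for 8 without WT chow replicate 4. In summed CPM, WT chow replicate 1 held 1985 for lipid droplet, 17654.5 for glutathione and NRF2 and 20168 for PPARalpha genes. Treated KO livers reached 1267, 10212 and 14533. Its cholesterol synthesis sum, 5981, lay between the WT livers used (2658 to 3381) and treated KO livers (6187 to 8549). Its female-biased sum of 227 lay within the range of the WT livers used. The female counts stayed within 1.5 times of 431 and 193 in all alternatives run. The sex difference moved from 783 genes to 19 with replicate 1 kept and to 1423 in DESeq2. Chosen after seeing the data, leaving out WT SC-435 replicate 4 moved the calls between treated genotypes from 4 to 11, DESeq2 gave 79, and the calls of WT SC-435 against WT chow moved from 160 to 315. The cause was not tested. With 3 and 4 mice a group, genes below about 1 CPM have wide intervals, and *Timp1* and *Cxcl2* were too low to be fitted.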

Other observations

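Not all genes called were protein coding. Among those higher 27 were lincRNAs and 10 antisense transcripts, and among those lower 11 were lincRNAs and 6 antisense transcripts, for which the counting of strand is not known. *Gm42031*, low in all treated KO livers, measured 43.9, 4.69, 0.0532 and 9.36 CPM in the 4 WT livers on SC-435 and 0.0449, 0, 0.0591 and 0.0353 CPM in KO livers on chow, so that it was near 0 in both KO groups and in 1 WT liver.

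A principal component analysis of the 1000 most variable genes over the 15 male libraries put the KO chow livers apart on the first component (45.6% of the variance) and the 3 WT chow livers apart on the second (10.8%). On the second component WT chow livers scored 18.6 to 27.7 and no other male library above 1.49. On the first component treated KO livers scored -14.3 to -5.73 and WT SC-435 livers -28.2 to -4.03.

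WT SC-435 replicate 4 also had *Lcn2* at 770 CPM, where the other 3 had at most 5.15 CPM.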
